A study of Mus musculus with 6 samples.

Results

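The Krüppel-like factors (KLFs) are transcription factors with zinc fingers at their carboxyl end, which bind GC-rich and CACCC-type sequences in promoters. The 10 genes described here, Klf2, Klf3, Klf4, Klf5, Klf6, Klf7, Klf9, Klf10, Klf11 and Klf13, were named as a list of family members and found by symbol among the 43432 genes of the tables. Their expression was measured by RNA-seq in primary cortical neurons from wild-type C57BL/6 mouse embryos at E16.5, both sexes pooled. All cultures were grown for 7 days and silenced overnight with 1 μM tetrodotoxin, which blocks sodium channels, and 100 μM DL-AP5, which blocks NMDA receptors. They were then held in 55 mM KCl for 2 h or 6 h, or harvested without it (0 h), with 2 replicates per time point and 6 libraries in all. High KCl depolarizes neurons and lets calcium in through voltage-gated channels, so the 0 h cultures are silenced neurons and no group was left with its own activity.

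KLFs fall by sequence into groups that bind different partners. Klf3 carries a site for the corepressor CtBP, as do its relatives Klf8 and Klf12. Klf2, Klf4, Klf5, Klf6 and Klf7 form a group that includes strong activators and binds acetyltransferases such as p300. Klf9, Klf10, Klf11 and Klf13, with Klf14 and Klf16, carry a domain that recruits the corepressor SIN3A. In neurons, Klf6 and Klf7 are known to promote axon growth and Klf4 and Klf9 to restrain it, so members of the same family act in opposite directions on the same process.

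The promoters of 3 members are shown because the 250 bases upstream of their start lie wholly before the annotated gene and because they carry the same short motif while their genes went different ways. Klf4 and Klf9 are members that rose at 2 h and Klf13 is a member with lower values at 2 h. Sequences are from RefSeq on GRCm38.p6, read 5′ to 3′ on the strand of the gene and ending at the base before the start. Capitals mark TGACG, the core of the cAMP response element (CRE) bound by CREB, on either strand, and in Klf9 also TGANTCA, the site of AP-1, the Fos and Jun dimer. The windows are chr4:55532476-55532725 on the minus strand for Klf4, chr19:23140976-23141225 on the plus strand for Klf9 and chr7:63938916-63939165 on the minus strand for Klf13.
Klf4: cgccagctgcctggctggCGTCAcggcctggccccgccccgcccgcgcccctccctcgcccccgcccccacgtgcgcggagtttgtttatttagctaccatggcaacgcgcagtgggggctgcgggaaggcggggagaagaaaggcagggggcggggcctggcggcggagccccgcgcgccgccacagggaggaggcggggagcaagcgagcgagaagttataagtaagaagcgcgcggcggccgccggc
Klf9: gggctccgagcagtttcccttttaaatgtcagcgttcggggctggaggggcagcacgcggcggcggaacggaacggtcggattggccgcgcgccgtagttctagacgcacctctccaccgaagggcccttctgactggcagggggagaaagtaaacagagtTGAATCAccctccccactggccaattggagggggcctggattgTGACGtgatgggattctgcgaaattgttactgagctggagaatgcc
Klf13: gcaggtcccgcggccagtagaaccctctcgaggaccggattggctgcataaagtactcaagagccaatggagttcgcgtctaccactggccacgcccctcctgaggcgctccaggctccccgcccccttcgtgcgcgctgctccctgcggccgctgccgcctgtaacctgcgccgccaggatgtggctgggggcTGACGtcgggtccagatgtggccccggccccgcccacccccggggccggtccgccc

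The TGACG core stands at -232 to -228 in Klf4, at -46 to -42 in Klf9 and at -56 to -52 in Klf13, counted from the start. The AP-1 match of Klf9, TGAATCA, stands at -89 to -83. Promoter sequences were matched for 8 of the 10 members, all but Klf5 and Klf10. TGACG was present in 4 of these 8 promoters (Klf2, Klf4, Klf9 and Klf13) and in 17.8% of the 32851 promoters of the table, and TGANTCA in 1 of 8 (Klf9) and in 6.75% of all. The full CRE, TGACGTCA, which contains the core, was in none of the 8 and in 1.55% of all promoters, and the CArG box bound by SRF, searched as a pattern of letters, was in none of the 8 and in 1.47% of all. GGGCGG, the GC box that KLF and SP factors themselves bind, was in 7 of 8, all but Klf9, against 32.7% of all, and the other KLF site, CACCC, in 5 of 8 against 52.0% of all. The median GC content of these 8 windows was 71.4%, against 52.4% over all promoters, so GC-rich letters are more frequent in them to begin with. All motifs were searched on both strands over these 250 bases, and a match is a description of the letters only.

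Sequencing depth was alike across the libraries, with 25959298 to 28573067 expected counts each. All 10 KLF genes had counts in 4 of the 6 libraries, and only Klf2 was at 0 in the others. Defining neuronal markers were abundant, with a summed level of 3367 to 4037 TPM over 12 genes, where TPM is a share of all transcripts corrected for their length. As a check that the cultures responded, Fos, an immediate-early gene, had normalized counts of 38.2 and 34.6 in the 0 h libraries, 6939 and 8222 in those of 2 h, and 3915 and 3806 in those of 6 h. The 2 h replicates differed from each other more than the others did, with an SD of the log2 difference between replicates of 0.43 over 12290 genes, against 0.25 at 0 h and 0.21 at 6 h. Across genes, that difference ran with GC content (Spearman's rho -0.73 at 2 h), and a fit with GC correction called the same number of members in every comparison.

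To place the members relative to each other, their levels were compared in TPM. In silenced neurons Klf7 was highest at 56.8 ± 4.87 TPM (SD, n = 2), followed by Klf6 at 45.4 ± 0.764 TPM and Klf13 at 29.1 ± 1.80 TPM. Klf11 followed at 16.2 ± 0.665 TPM. Klf10 at 9.71 ± 2.02 TPM and Klf3 at 7.89 ± 0.955 TPM overlapped in their libraries and so did not differ beyond their spread. Below them came Klf9 at 6.74 ± 0.424 TPM, Klf5 at 5.91 ± 0.311 TPM, Klf4 at 0.645 ± 0.134 TPM and Klf2 at 0.215 ± 0.0778 TPM. The order changed with depolarization. At 2 h Klf6 was highest at 57.4 ± 6.34 TPM and Klf7, at 17.4 ± 1.75 TPM, lay next to Klf13 and Klf9, and the libraries of Klf13 and Klf9 overlapped. At 6 h Klf6 reached 79.6 ± 1.17 TPM against 33.5 ± 2.33 TPM for Klf7, and Klf13 and Klf3 overlapped at 17.1 ± 0.757 and 16.9 ± 1.39 TPM. Effective lengths deposited for Klf3, Klf5 and Klf9 were at most 2012, 1419 and 2961 bases, well under their longest transcripts in GENCODE M21 (5221, 3352 and 4486 bases), so the place of these members in the order depends on the transcript models the authors used.

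**Figure D1:**
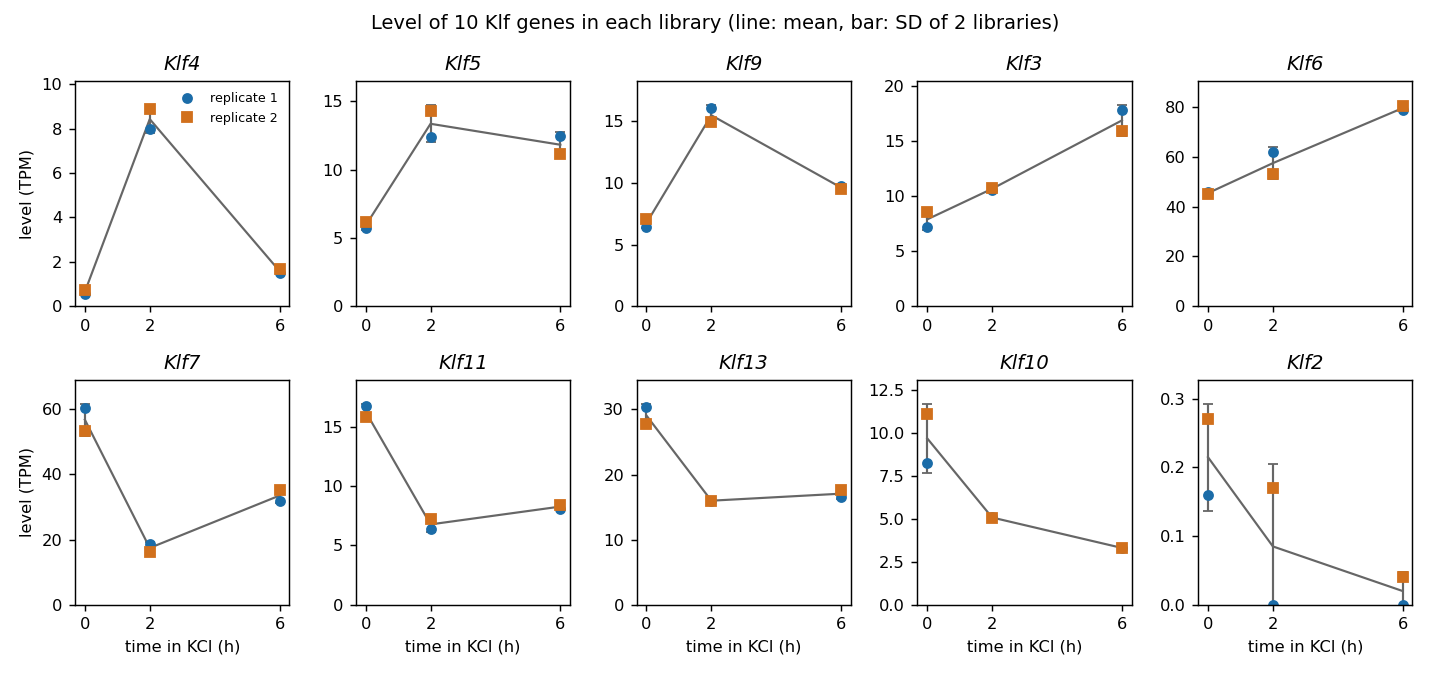
Level of each of the 10 KLF genes in TPM (y axis, from 0, a scale of its own in each panel) against time in KCl in hours (x axis). Circles and squares are the libraries of replicates 1 and 2, the line joins the means and bars are the SD of 2 libraries; Klf4 peaked at 2 h, Klf7 dipped at 2 h, and Klf3 and Klf6 had their highest values at 6 h.

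The summed level of the 10 members stayed between 146 and 183 TPM while its makeup was exchanged. The sum was 182 and 176 TPM at 0 h, 155 and 146 TPM at 2 h, and 180.1 and 183 TPM at 6 h. Klf7 gave 33.2% and 30.4% of it at 0 h, then 12% and 11.1% at 2 h, then 17.7% and 19.2% at 6 h. For Klf6 the shares were 25.3% and 25.5% in the 0 h libraries, 39.9% and 36.2% in those of 2 h, and 43.7% and 43.9% in those of 6 h. Thus Klf7 held the larger share in both 0 h libraries and Klf6 in all 4 depolarized ones. The SIN3A-binding members Klf9, Klf10, Klf11 and Klf13 summed to 61.8 and 61.8 TPM at 0 h, 43.6 and 43.1 TPM at 2 h, and 37.6 and 38.9 TPM at 6 h, with no overlap between time points. Klf9 went against this sum, from 6.44 and 7.04 TPM at 0 h to 16.1 and 14.9 TPM at 2 h. The activator group of Klf2, Klf4, Klf5, Klf6 and Klf7 summed to 112.6 and 105.3 TPM at 0 h, 101.0 and 92.5 TPM at 2 h, and 124.6 and 128.4 TPM at 6 h. Beside this, the summed level of 8 astrocyte markers was 597.3 to 639.8 TPM at 0 h, 573.8 to 574.2 TPM at 2 h and 463.1 to 480.6 TPM at 6 h, also without overlap. That of 8 markers of mural cells and fibroblasts was 17.93 to 21.07, 15.87 to 17.42 and 15.14 to 15.2 TPM in the same order of times, likewise without overlap. The single genes of this list went both ways. At 6 h against 0 h, Rgs5 and Col1a2 were called higher (log2 fold change 1.45 and 1.73) and Pdgfrb lower (-1.41). Dcn, the highest of them, was not called (-0.30), and 5 of the 8 stayed under 1 TPM in every library. The sum of 7 markers of the oligodendrocyte lineage was lowest at 2 h, as was that of the KLF genes, with 125.7 to 149.3 TPM at 0 h, 96.17 to 113.6 TPM at 2 h and 122.6 to 133.3 TPM at 6 h. The neuronal marker sum was 3961 to 4037 TPM at 0 h, 3367 to 3557 TPM at 2 h and 3832 to 3981 TPM at 6 h. Of the 12 neuronal markers, Gad1 and Gad2 were called higher and Tubb3 lower at 6 h against 0 h. The part of these cell types in the KLF levels was not tested. In cultures of several cell types, fewer cells of a type and less RNA per cell cannot be told apart.

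**Figure D2:**
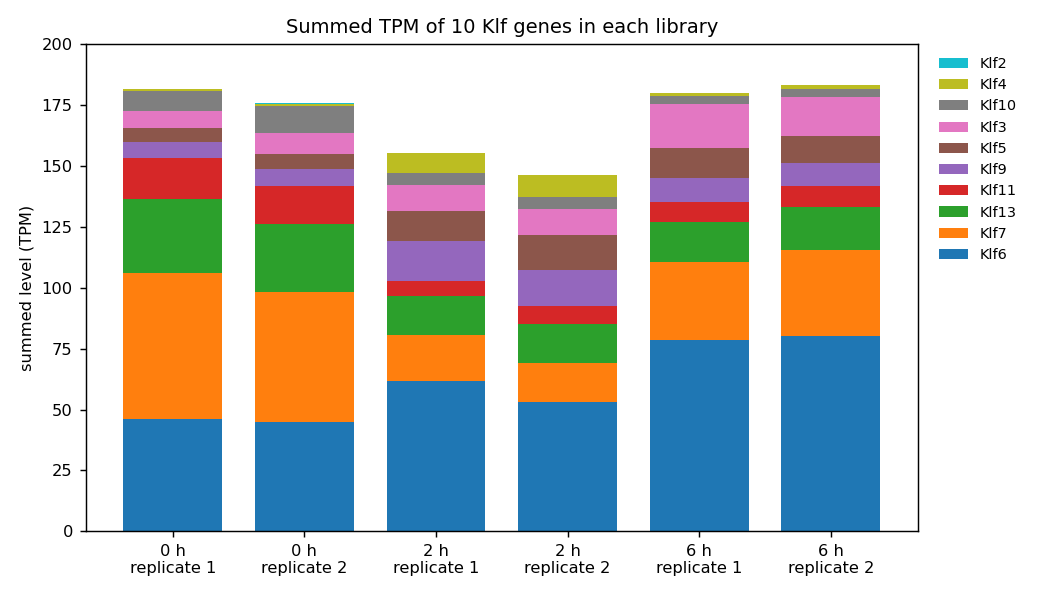
Summed level of the 10 KLF genes in TPM (y axis, from 0) in each of the 6 libraries (x axis), with 1 coloured segment per gene. The total stayed between 146 and 183 TPM, while the Klf7 segment shrank and the Klf6 segment grew from 0 h to 2 h and 6 h.

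Depolarization was then tested gene by gene with DESeq2 on the counts, with calls made where the adjusted p did not exceed 0.05 and the fold change was above 2 (absolute log2 fold change above 1). At 2 h against 0 h, 3 of the 10 members rose (Klf4, Klf5 and Klf9) and 2 fell (Klf7 and Klf11), where 3.62% of all 16840 genes with an adjusted p were called higher and 5.94% lower. At 6 h against 0 h, 3 members rose (Klf3, Klf4 and Klf5) and 1 fell (Klf10), where 9.1% of 17277 genes were called higher and 10.2% lower. Between 2 h and 6 h, 1 member fell (Klf4) and 0 rose, where 8.02% of 16404 genes were called lower and 10.1% higher. Of the members with a value above 0 in that comparison, 4 had an unadjusted p under 0.05 (Klf3, Klf6, Klf7 and Klf11), and the edgeR quasi-likelihood test also called 0 higher. Klf2, Klf6 and Klf13 were called in no comparison. The median log2 fold change of the 9 members whose mean normalized count reached 10 was 0.52 at 2 h and 0.69 at 6 h against 0 h, where the median over 14668 genes was 0.01 and -0.0044 respectively. Of these 9, 5 had values above 0 and 4 below it at both times, all with an adjusted p not above 0.05. Each median is thus the value of 1 member (Klf6 at 2 h, Klf9 at 6 h) and does not describe a shift of the list. Both comparisons with 0 h share the same 0 h libraries.

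The response was split within the activator group. Gene positions are from GENCODE M21 on GRCm38, and all 10 members are annotated as protein coding. Klf4 (ENSMUSG00000003032, chr4:55527143-55532466, minus strand), a pluripotency factor that also limits axon growth, had 0.55 and 0.74 TPM at 0 h, 7.99 and 8.88 TPM at 2 h, and 1.49 and 1.67 TPM at 6 h. Its 3 time points did not overlap, and the 6 h libraries lay above the 0 h ones. Klf4 rose 15.8-fold at 2 h (log2 fold change 3.98 ± 0.30 SE, adjusted p = 8.95e-37) and fell 5.43-fold from 2 h to 6 h (log2 fold change -2.44 ± 0.26, adjusted p = 9.33e-19). At 6 h it was still 2.91-fold above 0 h (log2 fold change 1.54 ± 0.33, adjusted p = 1.20e-05), although on a log2(TPM + 1) scale with limma this difference was 0.65 and under the fold threshold. It was the only member of the 10 with the early pattern, called higher at 2 h against 0 h and lower at 6 h against 2 h. Over all genes, these 2 calls were made singly for 3.62% and 8.02%. None had the late pattern, called higher at 6 h against both other times. Those calls were made singly for 9.1% of genes against 0 h and 10.1% against 2 h, so few late genes would be found in any list of 10. The share of genes with both calls was not computed.

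Klf4 and Klf2 are also known from endothelial cells, so markers of that cell type were read beside them. The summed level of 10 endothelial markers was 1.4 to 2.08 TPM at 0 h, 3.47 to 4.23 TPM at 2 h and 3.89 to 4.1 TPM at 6 h, and 2 of the 10, Pecam1 and Esam, were called higher than at 0 h at each later time (Pecam1 was at 0.41 and 0.45 TPM at 0 h and at 1.0 and 1.03 TPM at 2 h). Of these markers, 8 stayed under 1 TPM in every library, and Cdh5, a junction protein that defines endothelium, was at 0 to 0.02 TPM. Klf4 at 6 h was at 1.49 and 1.67 TPM while the marker sum lay within its 2 h range. The part of these cells in the level of Klf4 was not tested.

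Klf5 (ENSMUSG00000005148, chr14:99298691-99315036, plus strand), which promotes proliferation in epithelia and smooth muscle, had 5.69 and 6.13 TPM at 0 h, 12.4 and 14.3 TPM at 2 h, and 12.5 and 11.2 TPM at 6 h. Every depolarized library lay above both 0 h libraries, and the 2 h and 6 h libraries overlapped. Klf5 rose 2.55-fold at 2 h (log2 fold change 1.35 ± 0.21, adjusted p = 4.42e-09) and was 2.26-fold higher at 6 h than at 0 h (1.18 ± 0.21, adjusted p = 2.54e-07). Its values at 6 h and 2 h gave a log2 fold change of -0.18 ± 0.20 (adjusted p = 0.513). With library totals in place of size factors the 6 h difference from 0 h was 0.93 and under the fold threshold.

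Klf6 (ENSMUSG00000000078, chr13:5861482-5870394, plus strand), an injury-induced promoter of axon growth, was the most abundant member after depolarization. It had 45.9 and 44.9 TPM at 0 h, 61.9 and 53.0 TPM at 2 h, and 78.7 and 80.4 TPM at 6 h. The time points did not overlap, and the 2 h replicates were the furthest apart. The log2 fold change was 0.52 ± 0.13 at 2 h (adjusted p = 3.56e-04) and 0.99 ± 0.13 at 6 h against 0 h (adjusted p = 8.93e-14), which is 1.99-fold. Klf6 thus lay just short of the fold threshold at 6 h, and it passed it without replicate 1 of 0 h (1.02).

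Klf7 (ENSMUSG00000025959, chr1:64029447-64122282, minus strand), which promotes axon growth, had lower values where Klf6 had higher ones. It had 60.25 and 53.4 TPM at 0 h, 18.7 and 16.2 TPM at 2 h, and 31.9 and 35.2 TPM at 6 h. Both 2 h libraries were lowest and both 0 h libraries highest, with no overlap. Klf7 fell 2.82-fold at 2 h (log2 fold change -1.50 ± 0.12, adjusted p = 4.76e-31). At 6 h its log2 fold change was -0.59 ± 0.12 against 0 h (adjusted p = 9.18e-06) and 0.91 ± 0.13 against 2 h (adjusted p = 6.49e-12), both within the fold threshold. Klf7 was the only member with non-whole expected counts, in all 6 libraries. On the opposite strand it overlaps the long noncoding RNA Gm26649, which had 17.6 to 409.5 expected counts per library against 1750 to 6431 for Klf7. The libraries were stranded per the study's methods, but the strand setting of the counting is not given in the sources used here, so whether reads of the pair were separated is not known. With the counts of both genes summed, a setting chosen after seeing the data, the log2 fold change at 2 h was -1.53 and the call was the same.

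Klf2 (ENSMUSG00000055148, chr8:72319033-72321656, plus strand), known for its induction by flow in endothelium, was at the limit of detection. Its expected counts were 4 and 7 in the 0 h libraries, 0 and 4 in those of 2 h, and 0 and 1 in those of 6 h. The libraries of 0 h and 2 h overlapped, as did those of 2 h and 6 h, while both 6 h libraries lay below both 0 h ones. The ratio of summed counts, scaled for depth, was 0.427 at 2 h (95% interval 0.0992 to 1.44) and 0.113 at 6 h (0.00262 to 0.776), intervals that cover counting error only. Leaving out a library moved the fitted log2 fold change between -4.70 and -0.20 at 2 h and between -4.59 and -2.14 at 6 h against 0 h. DESeq2 gave an adjusted p of 0.283 at 6 h against 0 h and none for the other comparisons, so Klf2 was not called, although the counting interval of the ratio at 6 h lies below 1.

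**Figure D3:**
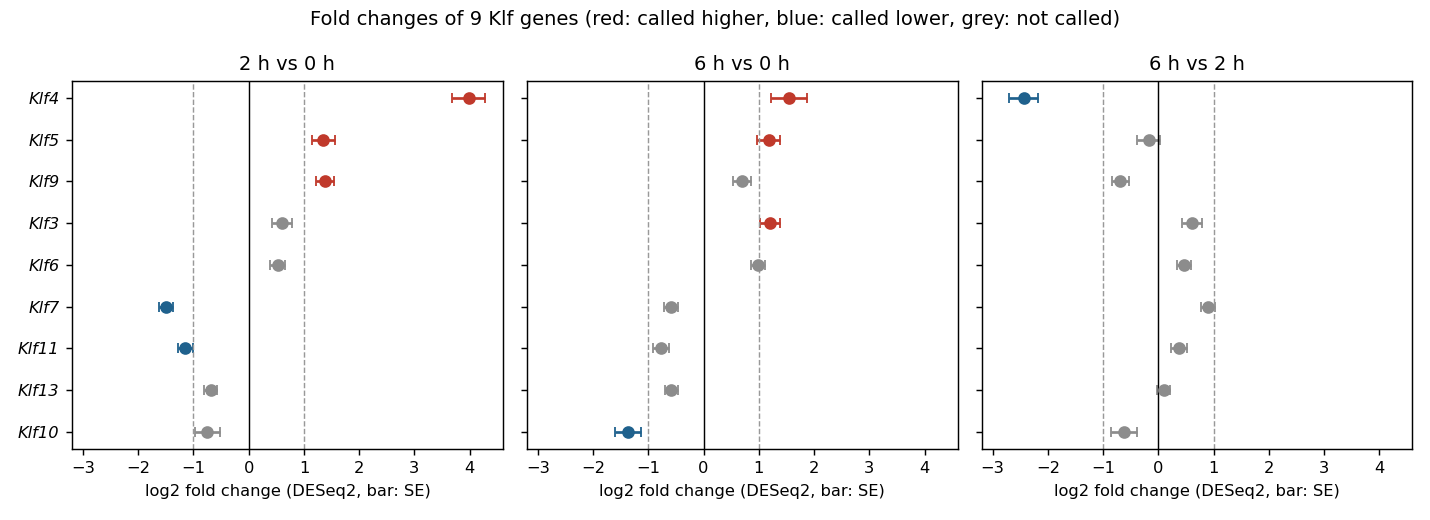
DESeq2 log2 fold changes (x axis) of 9 KLF genes (y axis) in the 3 comparisons, with bars for the SE, dashed lines at -1 and 1, red for genes called higher, blue for genes called lower and grey for genes not called; Klf2 is left out for its low counts. Klf4 stood furthest right at 2 h against 0 h with 3.98 and furthest left at 6 h against 2 h with -2.44.

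Klf3 (ENSMUSG00000029178, chr5:64803388-64832901, plus strand), the CtBP-binding repressor, passed the threshold at 6 h and not at 2 h. It had 7.21 and 8.56 TPM at 0 h, 10.6 and 10.8 TPM at 2 h, and 17.9 and 15.9 TPM at 6 h. Each time point lay above the one before it with no overlap. Klf3 rose 2.31-fold by 6 h (log2 fold change 1.21 ± 0.18, adjusted p = 4.12e-10), while its log2 fold changes of 0.60 at 2 h against 0 h and 0.60 at 6 h against 2 h each fell short of the fold threshold (adjusted p = 0.00623 and 0.00271). With library totals the 6 h value was 0.96 and under the threshold.

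Members of the SIN3A-binding group went in both directions. Klf9 (ENSMUSG00000033863, chr19:23141226-23168134, plus strand), a gene induced by glucocorticoid and thyroid hormone in the brain, had 6.44 and 7.04 TPM at 0 h, 16.1 and 14.9 TPM at 2 h, and 9.72 and 9.53 TPM at 6 h. The 2 h libraries were highest and the 6 h libraries in between, with no overlap. Klf9 rose 2.60-fold at 2 h (log2 fold change 1.38 ± 0.16, adjusted p = 4.59e-17). At 6 h the log2 fold change was 0.69 ± 0.16 against 0 h (adjusted p = 5.57e-05) and -0.69 ± 0.15 against 2 h (adjusted p = 3.76e-05), neither past the fold threshold.

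Klf10 (ENSMUSG00000037465, chr15:38291463-38300706, minus strand), first described as a gene induced early by TGF-beta, had 8.28 and 11.1 TPM at 0 h, 5.13 and 5.05 TPM at 2 h, and 3.29 and 3.34 TPM at 6 h. Both 0 h libraries were highest and both 6 h libraries lowest. Klf10 fell 2.58-fold by 6 h (log2 fold change -1.37 ± 0.23, adjusted p = 1.82e-08). At 2 h its log2 fold change was -0.75 ± 0.22 (adjusted p = 0.00430), short of the fold threshold.

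Klf11 (ENSMUSG00000020653, chr12:24651274-24662789, plus strand), the closest relative of Klf10 and likewise a TGF-beta response gene, had 16.7 and 15.8 TPM at 0 h, 6.34 and 7.19 TPM at 2 h, and 8.10 and 8.43 TPM at 6 h. Its lowest libraries were at 2 h rather than at 6 h, and no time points overlapped. Klf11 fell 2.21-fold at 2 h (log2 fold change -1.14 ± 0.14, adjusted p = 1.34e-14). At 6 h against 0 h the value was -0.77 ± 0.14 (adjusted p = 1.57e-07), which passed the fold threshold when library totals were used (-1.02).

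Klf13 (ENSMUSG00000052040, chr7:63886351-63938915, minus strand), known from lymphocyte cytokine genes, had 30.3 and 27.8 TPM at 0 h, 16.0 and 16.0 TPM at 2 h, and 16.53 and 17.6 TPM at 6 h. Both 0 h libraries lay above all depolarized ones. Its log2 fold changes of -0.69 ± 0.12 at 2 h (adjusted p = 5.46e-08) and -0.58 ± 0.12 at 6 h (adjusted p = 2.32e-06) were under the fold threshold, and from 2 h to 6 h the value was 0.10 ± 0.12 (adjusted p = 0.510).

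Relatives outside the list were read the same way. Of 16 other KLF and SP genes, 13 had an adjusted p at 2 h against 0 h, of which Klf14 and Sp9 rose and Klf15 fell. Klf15, a glucocorticoid-induced metabolic regulator, had normalized counts of 146.5 and 186.2 in the 0 h libraries, 22.0 and 37.2 in those of 2 h, and 129.5 and 169.9 in those of 6 h. The 2 h libraries stood apart while the 0 h and 6 h libraries overlapped (log2 fold change -2.49 at 2 h against 0 h, adjusted p = 2.79e-10, and 2.34 at 6 h against 2 h, adjusted p = 2.40e-09). Klf14, a SIN3A-binding relative, was at 1.8 and 2.5 normalized counts at 0 h and reached 25.7 and 33.3 at 6 h, a level of few counts. Sp9, a factor of developing interneurons, had 89.7 and 101.1 normalized counts in the 0 h libraries, 274.6 and 238.8 in those of 2 h, and 120.9 and 134.4 in those of 6 h, so its peak at 2 h coincided with that of Klf4 and Klf9. From 2 h to 6 h, 4 relatives rose (Klf8, Klf15, Sp1 and Sp2), a count that was 1 in the test against a fold of 2. Sp9 fell 2.01-fold from 2 h to 6 h, a call that was lost with GC correction, with either log2 TPM setting, in the test against a fold of 2, and without replicate 1 of 2 h or of 6 h. At 2 h against 0 h, 1 relative in place of 2 was called higher without replicate 1 or 2 of 0 h, without replicate 2 of 2 h or with log2(TPM + 1), and 0 in the test against a fold of 2. Sp1, the founding SP factor, had 1009 and 969.1 normalized counts in the 0 h libraries, 757.9 and 680.3 in those of 2 h, and 1888 and 1768 in those of 6 h. Sp1 and the CtBP-binding relative Klf8 had their lowest values at 2 h, where Klf3 lay above its 0 h level. At 6 h against 0 h, 2 rose (Klf14 and Sp2), a count that was 1 without replicate 1 of 0 h, with library totals, with log2(TPM + 0.1) or in the test against a fold of 2, 0 with log2(TPM + 1), and 3 with GC correction or without replicate 2 of 0 h or of 6 h. The median log2 fold change was -0.22 at 2 h and 0.63 at 6 h against 0 h over 12 genes.

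**Figure D4:**
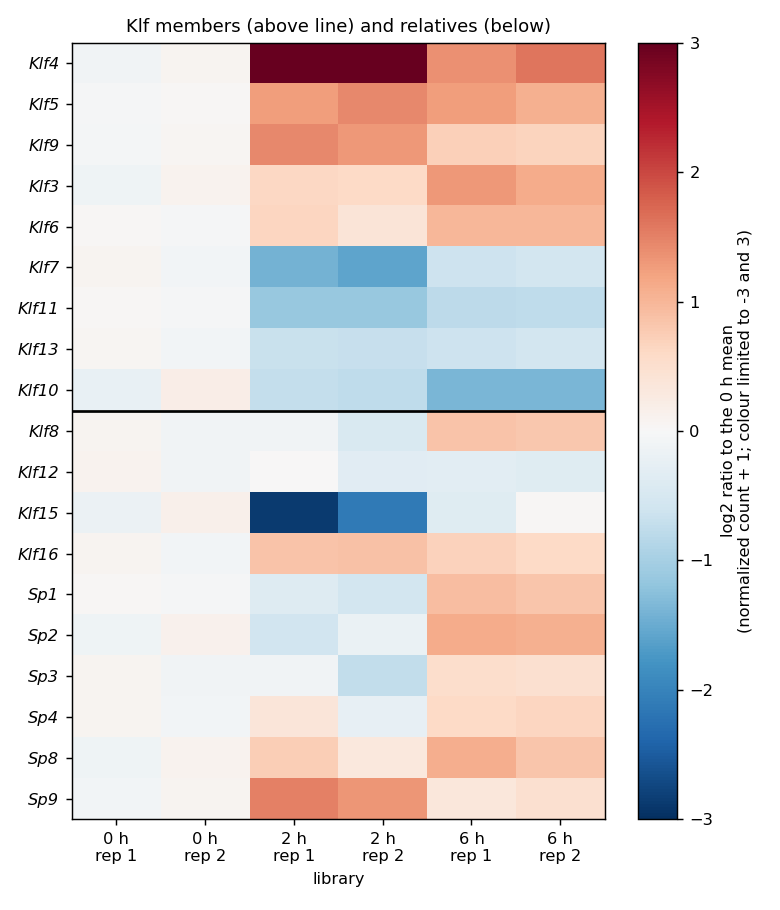
Log2 ratio of each library's normalized count (plus 1) to the 0 h mean (colour, limited to -3 and 3) for 9 KLF members above the line and 10 KLF and SP relatives with at least 50 normalized counts in any library below it, over the 6 libraries (x axis). Klf4, Klf9 and Sp9 were highest at 2 h, and Klf7, Klf11 and Klf15 lowest at 2 h.

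Among 12 cofactors through which KLFs act, 0 were called by DESeq2 or edgeR at 2 h against 0 h, and 4 had an unadjusted p under 0.05. The corepressor genes Ctbp1, Ctbp2, Sin3a, Sin3b, Hdac1 and Hdac2 were called in no comparison. Ep300, which encodes p300, was not called either. Its log2 fold changes against 0 h were 0.64 at 2 h (adjusted p = 6.21e-08) and 0.70 at 6 h (adjusted p = 6.75e-10), short of the fold threshold. By 6 h, Crebbp, which encodes the acetyltransferase CBP, rose (log2 fold change 1.24, adjusted p = 1.59e-22), as did the ubiquitin ligase genes Wwp1 (1.14, adjusted p = 2.60e-04) and Fbxw7 (1.10, adjusted p = 1.08e-22), whose products mark KLF proteins such as Klf5 for degradation. With library totals, log2(TPM + 1) or the test against a fold of 2, 0 of the 12 were called higher at 6 h, and 1 with log2(TPM + 0.1). The median over the 12 was 0.09 at 2 h and 0.27 at 6 h.

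Of 8 genes of the MEK5, ERK5 and MEF2 route and other factors upstream of KLF genes, Srf rose at 2 h (log2 fold change 1.37, adjusted p = 6.72e-32) and stayed up at 6 h (1.36). Map2k5, which encodes MEK5 in the route that induces Klf2 and Klf4 in endothelium, had 590.3 and 628.7 normalized counts in the 0 h libraries, 621.1 and 657.5 in those of 2 h, and 226.8 and 194.7 in those of 6 h. It fell at 6 h (log2 fold change -1.53 against 0 h, adjusted p = 1.67e-18). Creb1 had 2122 and 1039 normalized counts in the 2 h libraries and 4310 and 4442 in those of 6 h, so its rise from 2 h to 6 h (log2 fold change 1.47, adjusted p = 1.59e-06) depends in size on the 2 h library. At 6 h against 0 h it lay at the fold threshold (1.00), and 1 gene of the 8 in place of 2 was called higher with TMM factors, library totals, edgeR, GC correction, the test against a fold of 2 or a fit of 2 groups, and without replicate 2 of 0 h, either replicate of 2 h or replicate 2 of 6 h. The MEF2 genes were called in no comparison. Mef2d had log2 fold changes of 0.51 at 2 h (adjusted p = 7.74e-07) and 0.83 at 6 h (adjusted p = 7.83e-18) against 0 h, short of the fold threshold. Mef2a and Mef2c had an adjusted p above 0.05 in every comparison, and Mef2b had none.

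Genes reported as KLF targets were read without any claim on binding here. Of 11, Cdkn1a and Cdkn1b, cell cycle inhibitors, rose at 2 h (2.04-fold and 2.45-fold) and were also called higher at 6 h (2.51-fold and 2.41-fold). Ccnd1 rose 2.06-fold by 6 h. At 2 h, 1 of the 11 was called higher with library totals, with either log2 TPM setting or without replicate 1 of 0 h, 0 in the test against a fold of 2, and 3 without replicate 2 of 0 h or of 2 h. The growth cone genes Gap43 and L1cam were called in no comparison. Since Klf9 is itself a glucocorticoid-response gene, 7 other such genes were read beside it. Dusp1, Errfi1 and Per1 rose at 2 h (log2 fold change 1.63, 1.58 and 2.03) and were called higher at 6 h too (1.94, 2.32 and 2.41). Sgk1 was called at 2.02-fold by 6 h, at the edge of the threshold, and 3 of the 7 in place of 4 were called higher with TMM factors, library totals, edgeR, either log2 TPM setting or the test against a fold of 2, or without replicate 2 of 0 h or replicate 1 of 6 h. Fkbp5 fell by 6 h (log2 fold change -1.39, adjusted p = 5.85e-23). The corresponding values of Klf9 were 1.38 at 2 h and 0.69 at 6 h.

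For each called member, the 3 genes with the most similar profile over the 6 libraries were found by Euclidean distance of centred log2 normalized counts among 11174 genes. Nearest to Klf4 were Gm37917, Gm29562 and Cwc25, at distances of 0.811 to 0.917. The other called members had closer neighbours, with first distances of 0.14 to 0.29. These were Sertad2, Lgr4 and D17Wsu92e for Klf3, Crkl, Sap18b and Adamts1 for Klf5, and Kpna2, Irf2bp2 and Ythdc1 for Klf9. Among members that fell, they were Syde2, Exosc4 and Tstd2 for Klf7, Ptpn3, Tspyl3 and Bloc1s3 for Klf10, and Gucd1, Enpp4 and Tysnd1 for Klf11.

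The mix of transcripts was assessed by the effective length of each gene, a mean over its transcripts weighted by their abundance. None of the 9 members tested, all but Klf2, passed limma's test with a change of at least 0.2 on the log2 scale, where 0.0356% to 0.525% of 11233 genes did per comparison. In percent of the lowest value, Klf4 had the widest span of the members over the libraries (2341 to 2727 bases), followed by Klf11 with 11.6% (3280 to 3660 bases) and Klf7 with 7.19% (6549 to 7020 bases). For Klf3 the log2 ratio at 6 h against 0 h was -0.08 (adjusted p = 0.0719).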

How the data were processed

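RNA-seq of cultured neurons (6 libraries) was analysed, with groups and replicate numbers from the sample titles. Per the labels, libraries were made after poly(A) selection, and the submitters' processing notes name RSEM 1.3.0, Bowtie2 2.2.9 and mm10. The annotation release and strand setting are not given in the sources used here. RSEM shares ambiguous reads among genes, so expected counts as deposited can hold fractions and are not normalized. Deposited TPM are scaled to an equal total per library and corrected for length, and deposited effective lengths (another unit) are in bases. Symbols and positions came from GENCODE M21 (GRCm38), and promoters from RefSeq.

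Expected counts (25959298 to 28573067 per library) were rounded and tested with DESeq2 1.42.0 in R 4.3.3 in a single fit of all 6 libraries, using Wald tests without shrinkage of fold changes. P-values were adjusted by Benjamini-Hochberg over all genes that passed independent filtering. Calls needed an adjusted p not above 0.05 with an absolute log2 fold change above 1, as in the study's methods. Normalized counts were divided by DESeq2 size factors. Effective lengths were tested with limma 3.58.1 over genes averaging 100 or more expected counts. Alternatives were TMM factors, library totals, edgeR 4.0.16, count filters, a test against a fold of 2, fits of 2 groups, a replicate block, GC correction, log2 TPM with limma and leaving out each library. The analysis steps were tested on simulated data.

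The members, gene lists and tests were chosen with earlier results of these data known. Genes named by rule are the members, called genes of the lists, Fos, and the 3 nearest genes of each called member among those averaging 100 or more normalized counts. List genes named as not called, Gm26649 and the cell type markers were chosen after their values were seen. 1 gene of the lists is not reported here. The study calls the replicates biological, but the labels do not say whether they came from separate cultures, so p-values measure the spread between these libraries.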

Additional observations from a re-analysis of the deposited data

How the results depend on the processing

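Counts of called KLF genes moved by more than 1.5 times under 3 of the alternatives. In a test against a fold of 2, 1 member was called higher (Klf4) and 1 lower (Klf7) at 2 h against 0 h, and 0 higher and 0 lower at 6 h against 0 h. With library totals, 1 was called higher and 2 lower at 6 h against 0 h, as the median of all genes moved to -0.25 there, and with log2(TPM + 1) and limma 1 was called higher. Klf5 at 6 h was also under the fold threshold with log2(TPM + 0.1) and limma (0.99). The cause was not tested. For Klf2 at 6 h against 2 h, leaving out a library gave -3.39 to 1.56, the latter without replicate 2 of 2 h. Over all members, comparisons and settings, 525 values kept direction and side of the threshold, 12 lost a call, 2 gained one and 1 turned its direction, the Klf2 value above.

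Same-numbered libraries were not shown to be paired, as their deviations correlated at 0.28, -0.0023 and 0.15. With the replicate block, 3 members were called higher and 2 lower at 2 h against 0 h, as without it, and it changed no other count of called members. Low counts limit Klf2, and 2 libraries per group limit every interval.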
